A study of Homo sapiens with 54 samples.

Results

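The 10 genes described here are targets of NRF2, the transcription factor that switches on the cell's defences against oxidants and reactive chemicals, among the 55906 gene records of the expression tables. They were chosen by name, as the rows *AKR1C1*, *AKR1C2*, *AKR1C3*, *AKR1B10*, *NQO1*, *GCLM*, *GCLC*, *TXNRD1*, *SRXN1* and *HMOX1* in each of 4 tables, 1 for each cancer cell line. The study asked what cells lose when the splicing factors TRA2A and TRA2B, which are close paralogs, are removed singly or together. RNA was read as poly(A) libraries in 18 conditions of 3 libraries each, 54 libraries in all, and levels are given as TPM, a transcript's share of its library corrected for length. The lung adenocarcinoma lines A549 and NCI-H23 carried Zim3-dCas9, a Cas9 that cannot cut and is fused to a repressor (CRISPR interference), and were collected 5 days after guide delivery in 4 conditions: Control KD, TRA2A KD, TRA2B KD and the double knockdown, TRA2A/B DKD. All of them carry the repressor, and the cells were populations sorted for a fluorescent marker on the dCas9 vector. The glioblastoma lines LN229 and LN319 carried cutting Cas9 and were collected at day 7. They expressed either luciferase (Luc) or a *TRA2B* cDNA (TRA2B-OE) and received control guides (Luc Control KO, TRA2B-OE Control KO), *TRA2A* guides (Luc TRA2A KO, TRA2B-OE TRA2A KO) or *TRA2B* guides (Luc TRA2B KO only). These are edited populations, so cells that escaped editing remain in them, and a knockout that alters the coding sequence need not lower the mRNA.

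NRF2, the product of *NFE2L2*, is held low by KEAP1, an adaptor that brings it to the CUL3 ubiquitin ligase for destruction. Oxidants and electrophiles disable KEAP1, and NRF2 then pairs with a small MAF protein on antioxidant response elements near its targets. BACH1 occupies such elements as a repressor, above all at *HMOX1*, and SQSTM1 (p62) competes for KEAP1. In lung adenocarcinoma the pathway is often locked on by loss of KEAP1, and A549 is a widely used line of that kind.

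The members fall into 4 roles. *AKR1C1*, *AKR1C2*, *AKR1C3* and *AKR1B10* encode aldo-keto reductases, which reduce steroids, aldehydes and quinones, and *NQO1* encodes a quinone reductase. *GCLM* and *GCLC* encode the modifier and catalytic subunits of the enzyme that starts glutathione synthesis. *TXNRD1* encodes the cytosolic thioredoxin reductase, and *SRXN1* encodes sulfiredoxin, which restores over-oxidised peroxiredoxins. *HMOX1* encodes heme oxygenase, which breaks down heme and releases iron.

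In GRCh38 (Gencode release 44) the 3 AKR1C genes lie within 144 kb of chromosome 10: *AKR1C1* at chr10:4963253-4983283 on the plus strand, *AKR1C2* at chr10:4987775-5018031 on the minus strand and *AKR1C3* at chr10:5035354-5107686 on the plus strand. *AKR1B10* is at chr7:134527567-134541412, *TXNRD1* at chr12:104215779-104350307 and *HMOX1* at chr22:35380361-35394214, all on the plus strand. *NQO1* is at chr16:69706996-69726668, *GCLM* at chr1:93885199-93909456, *GCLC* at chr6:53497341-53616970 and *SRXN1* at chr20:646615-653200, all on the minus strand. Some members share transcript sequence with neighbours, which limits how well reads can be assigned. Of the 31-base words in the transcripts of *AKR1C2*, 45.5% also occur in other genes, nearly all of them in *AKR1C1*. The shared part is 31.8% for *AKR1C1*, 8.29% for *AKR1C3* and 31.5% for *AKR1B10*, whose closest match is *AKR1B15*. For *SRXN1* it is 90.6%, because a readthrough gene record on the same strand holds most of its transcript. The other 5 members share between 0.168% and 8.74%. Values of *SRXN1*, *AKR1B10* and of *AKR1C1* against *AKR1C2* are therefore uncertain as single-gene values.

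The antioxidant response element is the sequence that ties these genes to NRF2, so a long form of its core was looked for in the genome. The letters searched were TGACTCAGC, on both strands, in the 10 kb before the start of each gene's canonical transcript. The word holds the shorter AP-1 core, so the same letters can be read by other factors. It was present in 5 of the 10 members, with 8 matches, and in 2569 of 19970 protein-coding genes (12.9%). The matches are shown with 10 bases on either side, read along the strand of the match, with the searched letters in capitals.
AKR1C1, chr10:4957062-4957090, minus strand: gcagtcagggTGACTCAGCagcttgcaca
AKR1C2, chr10:5009399-5009427, plus strand: gcagtcagggTGACTCAGCagcttgcaca
NQO1, chr16:69726997-69727025, minus strand: gcagtcacagTGACTCAGCagaatctgag
GCLC, chr6:53548239-53548267, plus strand: cgcctccccgTGACTCAGCgctttgtgcg
HMOX1, chr22:35377146-35377174, minus strand: gaggcactggTGACTCAGCaaaatctagc
HMOX1, chr22:35372096-35372124, minus strand: ctctagaccgTGACTCAGCgaaaacagac
HMOX1, chr22:35372067-35372095, minus strand: accgggaccgTGACTCAGCgaaaacagat
HMOX1, chr22:35372009-35372037, minus strand: ctcgggaccgTGACTCAGCaggaaaaaca
The *NQO1* match is the nearest to a start, 447 bases before it. Of the 4 *HMOX1* matches, 3 stand in a cluster 8982 to 9069 bases before the start and the other lies 3932 bases before it. The *AKR1C1* and *AKR1C2* runs are identical over all 29 bases, 6335 and 5552 bases before their starts. The *AKR1C2* and *GCLC* matches lie inside the gene spans given above. The canonical transcripts of these 2 genes start within those spans, at chr10:5003857 and chr6:53545101. *AKR1C3*, *AKR1B10*, *GCLM*, *TXNRD1* and *SRXN1* hold none of these letters in the window, which says nothing of other forms of the element or of other positions.

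Before the perturbations, the control libraries set out how differently the 4 lines express the pathway. No test was made between lines, since each line has its own table, and the values are TPM as deposited, which are already per length, as mean ± SD of 3 libraries. Together the members took 0.779% to 0.807% of all TPM in the control libraries of A549, against 0.0771% to 0.0887% in NCI-H23, 0.105% to 0.118% in LN229 Luc Control KO and 0.0257% to 0.0284% in LN319 Luc Control KO.

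In A549 Control KD the aldo-keto reductases *AKR1C2* (1823 ± 307 TPM), *AKR1B10* (1533 ± 259 TPM) and *AKR1C3* (1335 ± 76.9 TPM) stood with *NQO1* (1386 ± 227 TPM) at the top, and *AKR1C2* ranked 52 among the 16405 genes that passed the filter there. Each of these 4 overlapped its neighbour in the order from library to library. *TXNRD1* followed at 764 ± 60.6 TPM, then *AKR1C1* at 277 ± 36 TPM, *SRXN1* at 163 ± 7.46 TPM and *HMOX1* at 116 ± 8.56 TPM, each clear of its neighbours. The glutathione synthesis genes were lowest, *GCLM* at 65.8 ± 10.2 TPM and *GCLC* at 58.7 ± 31.5 TPM, and these overlapped.

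NCI-H23 and A549 are both lung adenocarcinoma lines but differed most in the reductases. In NCI-H23 Control KD, *AKR1C2* was listed at 0 in all 3 libraries, and *AKR1C3* (0.13 ± 0.11 TPM), *AKR1C1* (0.0921 ± 0.106 TPM) and *AKR1B10* (0.0545 ± 0.0723 TPM) were barely detected. *NQO1* (368 ± 30.2 TPM) and *TXNRD1* (313 ± 16.1 TPM) led there, followed by *SRXN1* (48.3 ± 1.58 TPM), *HMOX1* (34.9 ± 3.77 TPM), *GCLM* (21.2 ± 3.2 TPM) and *GCLC* (8.0 ± 1.5 TPM), with no overlap between neighbours.

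The glioblastoma lines differed in the reductases too. *NQO1* was the highest member in LN229 Luc Control KO at 628 ± 122 TPM and the fifth in LN319 at 14.3 ± 1.38 TPM. *AKR1C1* was at 71.4 ± 13.6 TPM in LN229, overlapping *SRXN1* (79.1 ± 21.8 TPM), whereas in LN319 *AKR1C1* (1.35 ± 0.0792 TPM), *AKR1C2* (1.25 ± 0.187 TPM) and *AKR1C3* (1.11 ± 0.125 TPM) each overlapped its neighbour in the order, near the detection filter. The rest of LN229 was *GCLM* at 29.0 ± 8.6 TPM overlapping *AKR1C3* at 28.5 ± 3.9 TPM, *GCLC* at 10.5 ± 2.73 TPM overlapping *AKR1C2* at 9.51 ± 1.56 TPM, and *AKR1B10* at 2.35 ± 0.838 TPM. The remaining LN319 members were *GCLM* (28.4 ± 2.45 TPM), *SRXN1* (16.9 ± 0.335 TPM), *GCLC* (6.21 ± 0.282 TPM) and *AKR1B10* (0.268 ± 0.111 TPM).

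*TXNRD1* and *HMOX1* were closer between the glioma lines. *TXNRD1* was at 179 ± 47.3 TPM in LN229 and 166 ± 12.4 TPM in LN319, and *HMOX1* at 22.9 ± 0.974 and 28.5 ± 1.39 TPM. *SRXN1* was not close, at 79.1 ± 21.8 TPM in LN229 and 16.9 ± 0.335 TPM in LN319, without overlap. A549 levels exceeded those of LN229 by a factor of 2.06 for *SRXN1*, 2.21 for *NQO1*, 5.08 for *HMOX1*, 46.8 for *AKR1C3*, 192 for *AKR1C2* and 652 for *AKR1B10*. The members therefore did not scale together from line to line.

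**Figure D1:**
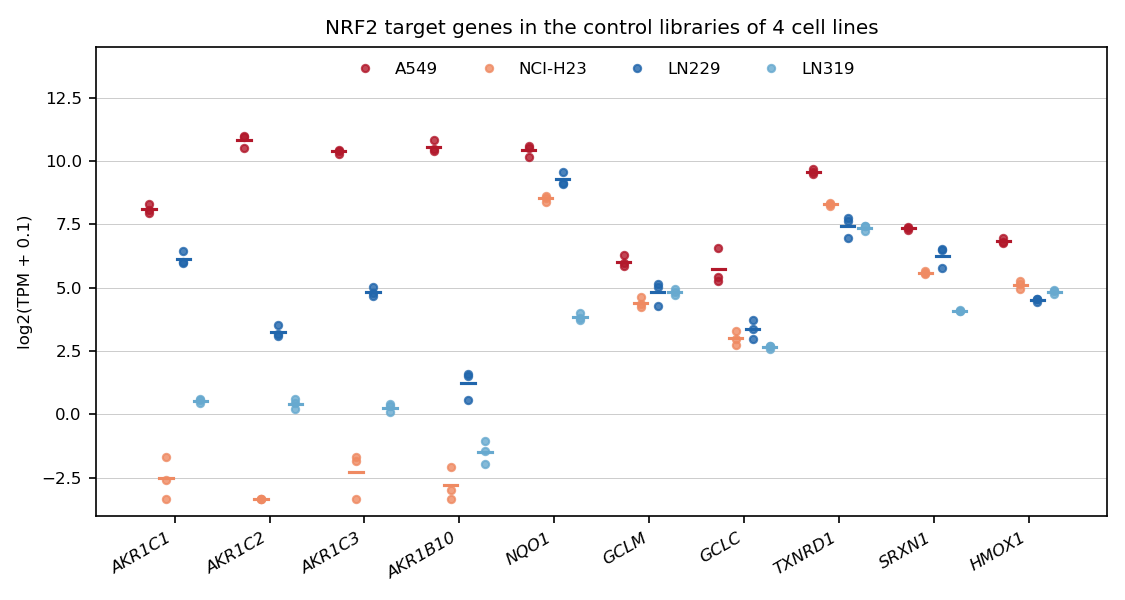
Level of each member in the control libraries of the 4 lines, as log2(TPM + 0.1) on the vertical axis, with a point for each of 3 libraries and a bar at their mean on that scale. *AKR1C2*, *AKR1C3* and *AKR1B10* span the widest range, from over 1000 TPM in A549 to under 1 TPM in NCI-H23, while *TXNRD1* stays above 100 TPM in every line.

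Of the regulators, *NFE2L2* and *KEAP1* varied less than any member. *NFE2L2*, which encodes NRF2, was at 43.5 TPM in A549 controls, 80.8 TPM in NCI-H23, 98.2 TPM in LN229 and 85.6 TPM in LN319, so its mRNA was lowest in the line with the highest target levels. *KEAP1* was at 47.6, 41.0, 54.5 and 85.8 TPM in the same order. The tissue labels were checked against 6 epithelial and 7 glial or mesenchymal markers in the control libraries, which followed the labels only in part. The keratin mRNAs *KRT8* and *KRT18* were at 2779 and 2804 TPM in A549 controls and reached 772 and 1155 TPM in those of NCI-H23, against 32.5 and 118 TPM in LN229 and 120 and 97.0 TPM in LN319. *KRT7* was at 3594 TPM in A549 but at 3.95 TPM in NCI-H23, below LN229 (31.1 TPM) and LN319 (11.4 TPM). The adhesion gene *CDH1* went against the labels, highest in LN319 at 123 TPM, with A549 at 21.7 TPM, NCI-H23 at 1.94 TPM and LN229 at 0.226 TPM. *KRT19* was likewise highest in LN319 (8.61 TPM), with A549 at 5.85 TPM, LN229 at 0.373 TPM and NCI-H23 at 0.0766 TPM. *EPCAM* was low in all 4 lines, from 0.253 to 2.76 TPM. Of the glial markers, the astrocyte gene *GFAP* was at 0.339 to 2.84 TPM in every line and so marks none of them. *SOX2*, a neural stem cell factor, was at 81.9 TPM in LN229 and 402 TPM in LN319 against 0.722 and 0.287 TPM in the lung lines, while *S100B* (455 TPM) and *OLIG2* (9.78 TPM) were high in LN229 alone and at 0.348 and 0.0101 TPM in LN319. The mesenchymal genes *VIM* and *CDH2* were higher in the glioma lines, at 3031 and 102 TPM in LN229 and 3265 and 152 TPM in LN319, than in A549 (1106 and 33.1 TPM) and NCI-H23 (1599 and 12.2 TPM). *FN1* was at 861 and 1506 TPM in the glioma lines, with A549 at 263 TPM and NCI-H23 at 1.14 TPM.

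Each perturbation was compared with the control of its own line and background by limma on log2(scaled TPM + 0.1). Overlap between libraries is stated in TPM as deposited, and the scaled values can differ in this. A gene entered where 4 or more libraries of its line reached 1 TPM, and a gene is called at a Benjamini-Hochberg adjusted p under 0.05 over all genes of that comparison, with no minimum fold change. All 10 members entered in A549 and LN229, 9 in LN319 (without *AKR1B10*) and 6 in NCI-H23 (without the 4 aldo-keto reductases). Over 14 comparisons that gave 124 tests of a member, of which 30 were called, 21 higher and 9 lower. *HMOX1* was called higher in 7 of its 14 comparisons and never lower, the only member of which both hold. *AKR1C2* was called in none of 11. All changes are from bulk RNA, in which fewer cells of a kind and less RNA per cell cannot be told apart, and the labels do not say whether libraries of a condition came from separate cultures, so p-values measure the spread between these libraries.

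The targeted genes were checked first. *TRA2A* fell to 7.18 TPM from 75.1 TPM in A549 TRA2A KD and to 6.84 from 105 TPM in NCI-H23 TRA2A KD, and *TRA2B* fell to 13.3 from 137 TPM and to 9.75 from 92.2 TPM in the TRA2B KD. In the TRA2A/B DKD both genes fell, to between 10.4 and 23.3 TPM. With cutting Cas9 the mRNA was reduced less: *TRA2A* fell to 68.8 from 109 TPM in LN229 Luc TRA2A KO and to 35.5 from 107 TPM in LN319, and *TRA2B* fell to 147 from 222 TPM and to 30.8 from 87.6 TPM. In LN229 TRA2B-OE TRA2A KO, *TRA2A* was at 69.9 against 80.2 TPM and was not called (limma adjusted p = 0.068). *TRA2B* in the TRA2B-OE Control KO libraries was at 832 TPM in LN229 and 765 TPM in LN319. Libraries stand apart in 2 places: Control KD replicate 3 of A549, whose median correlation with the other libraries of its line was the lowest at 0.837, and Luc Control KO replicate 1 of LN229, which correlated at 0.957 to 0.960 with the Luc TRA2B KO libraries and at 0.940 to 0.949 with its fellow controls. Member results that rest on them are given with and without them, and so are the counts of the further gene lists in which those libraries change a call, an alternative chosen after seeing the data.

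Single knockdown in the lung lines moved few members. In A549 TRA2A KD, limma called 0 of 10 members (2 at an unadjusted p under 0.05), where 0.207% of all genes tested were called. In A549 TRA2B KD, 2 members rose against a background of 0.341%: *HMOX1*, by a log2 fold change of 0.67 ± 0.11 (SE, limma adjusted p = 0.0405), and *AKR1C1*, by 0.53 ± 0.09 (adjusted p = 0.0492). *HMOX1* was at 113, 126 and 110 TPM in the A549 Control KD libraries, at 137, 143 and 143 TPM in TRA2A KD and at 172, 175 and 174 TPM in TRA2B KD. The 3 conditions did not overlap, although the TRA2A KD difference, 0.43 ± 0.11, was not called (adjusted p = 0.22). *AKR1C1* was at 268, 246 and 317 TPM in Control KD and at 349, 380 and 393 TPM in TRA2B KD, again without overlap. Both calls are fragile: no member was called without Control KD replicate 1 or without any 1 of the 3 TRA2B KD libraries, and 1 was without Control KD replicate 2. When Control KD replicate 3 was left out, *SRXN1* was called lower in TRA2A KD, by -0.41 (adjusted p = 0.0155).

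In NCI-H23, limma called 0 of 6 members in TRA2A KD (3 at an unadjusted p under 0.05), with 0.976% of genes called, and 0 of 6 in TRA2B KD (2 at an unadjusted p under 0.05), with 0.196%. *HMOX1* was at 30.8, 35.5 and 38.2 TPM in Control KD, at 46.1, 37.3 and 44.2 TPM in TRA2A KD and at 46.1, 44.4 and 46.0 TPM in TRA2B KD. In TPM as deposited, the TRA2A KD libraries overlapped the controls and the TRA2B KD libraries did not. On the scaled values, *HMOX1* was at an unadjusted limma p under 0.05 in both. The share of TPM from mitochondrial genes in NCI-H23 was 23.12% to 31.91% in Control KD and 25.2% to 33.41% in TRA2A KD. It was 17.79% to 19.31% in TRA2B KD and 19.26% to 28.25% in TRA2A/B DKD, and its part in the values of this line was not tested.

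The largest change of any member in the 14 comparisons was in the NCI-H23 double knockdown. There 5 of 6 members tested rose and none fell, where 43.2% of all genes tested were called in either direction, and the median log2 fold change was 0.85 over the members and 0.02 over all genes tested. *HMOX1* was at 30.8, 35.5 and 38.2 TPM in Control KD and at 898, 727 and 930 TPM in TRA2A/B DKD. The log2 fold change was 4.45 ± 0.08 (SE, limma adjusted p = 3.57e-10), the smallest p of all 16293 genes tested in that comparison.

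*NQO1*, the quinone reductase, was at 337, 397 and 372 TPM in NCI-H23 Control KD and at 1224, 1081 and 1196 TPM in TRA2A/B DKD, a log2 fold change of 1.51 ± 0.08 (adjusted p = 1.74e-07). *TXNRD1* was at 296, 328 and 315 TPM in controls and at 594, 571 and 640 TPM in TRA2A/B DKD, with a log2 fold change of 0.79 ± 0.06 (adjusted p = 1.75e-06). The libraries of these genes were far apart between conditions. *SRXN1* moved from 46.7, 49.9 and 48.3 TPM to 70.7, 70.9 and 73.5 TPM (log2 fold change 0.41 ± 0.05, adjusted p = 0.000123). The glutathione subunits differed from each other: *GCLC* rose from 6.54, 9.60 and 7.85 TPM to 18.8, 17.3 and 14.4 TPM (0.92 ± 0.22, adjusted p = 0.00645), while *GCLM* had a log2 fold change of 0.20 ± 0.11 and was not called (adjusted p = 0.17). No alternative setting removed any of these 5 calls. The aldo-keto reductases stayed near 0, and *AKR1B10* was listed at 0.48, 1.07 and 0.458 TPM in the TRA2A/B DKD libraries with no test.

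The A549 double knockdown had a different shape. Of 10 members, 1 rose and 4 fell, with 30.6% of all genes called, and the median log2 fold change was -0.25 over the members and 0.03 over all genes tested. *HMOX1* again rose: its TRA2A/B DKD libraries were at 245, 262 and 290 TPM against 110 to 126 TPM in the controls, a log2 fold change of 1.11 ± 0.11 (SE, limma adjusted p = 4.58e-05). *NQO1*, which had risen in NCI-H23, was at 1468, 1560 and 1129 TPM in A549 Control KD and at 1537, 1660 and 1727 TPM in TRA2A/B DKD. Those libraries overlapped, and the log2 fold change of 0.18 ± 0.17 was not called (adjusted p = 0.46). *TXNRD1* was likewise not called, at -0.03 ± 0.08 (adjusted p = 0.79).

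Of the 4 aldo-keto reductases in A549, 2 fell. *AKR1C3* was at 1356, 1399 and 1249 TPM in Control KD and at 788, 779 and 847 TPM in TRA2A/B DKD, with no overlap and a log2 fold change of -0.81 ± 0.12 (SE, limma adjusted p = 0.000464). *AKR1B10* was at 1428, 1343 and 1829 TPM and fell to 1178, 1116 and 1106 TPM, a log2 fold change of -0.50 ± 0.10 (adjusted p = 0.00265). *AKR1C2* was at 2009, 1992 and 1469 TPM in controls and at 1324, 1310 and 1439 TPM in TRA2A/B DKD, just short of the threshold (-0.49 ± 0.17, adjusted p = 0.0526). The TPM of *AKR1C1*, *AKR1C2* and *AKR1C3* were also summed in each library, which lessens but does not remove the effect of reads shared between them. The sum had a log2 fold change of -0.55 ± 0.15 (adjusted p = 0.0180). *AKR1C1* itself was not called, at 0.10 ± 0.09 (adjusted p = 0.48).

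The other 2 A549 calls were weaker. *GCLC* was at 42.5, 38.6 and 95 TPM in Control KD, of which replicate 3 is far above the others, and at 21.2, 37.3 and 24.1 TPM in TRA2A/B DKD (log2 fold change -1.09 ± 0.28, SE, limma adjusted p = 0.0146). *SRXN1* was at 165, 169 and 155 TPM and fell to 131, 140 and 142 TPM (-0.32 ± 0.11, adjusted p = 0.0400). Without Control KD replicate 3, 7 of 10 members were called, with 37.8% of all genes: *AKR1C2* (-0.71, adjusted p = 7.71e-06) and *GCLM* (-0.34, adjusted p = 0.0228) then passed the threshold, and *GCLC* was smaller at -0.75 (adjusted p = 0.0303). Without TRA2A/B DKD replicate 1 or replicate 3 the count was 3, and the *SRXN1* call was lost in 10 of 13 alternatives.

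**Figure D2:**
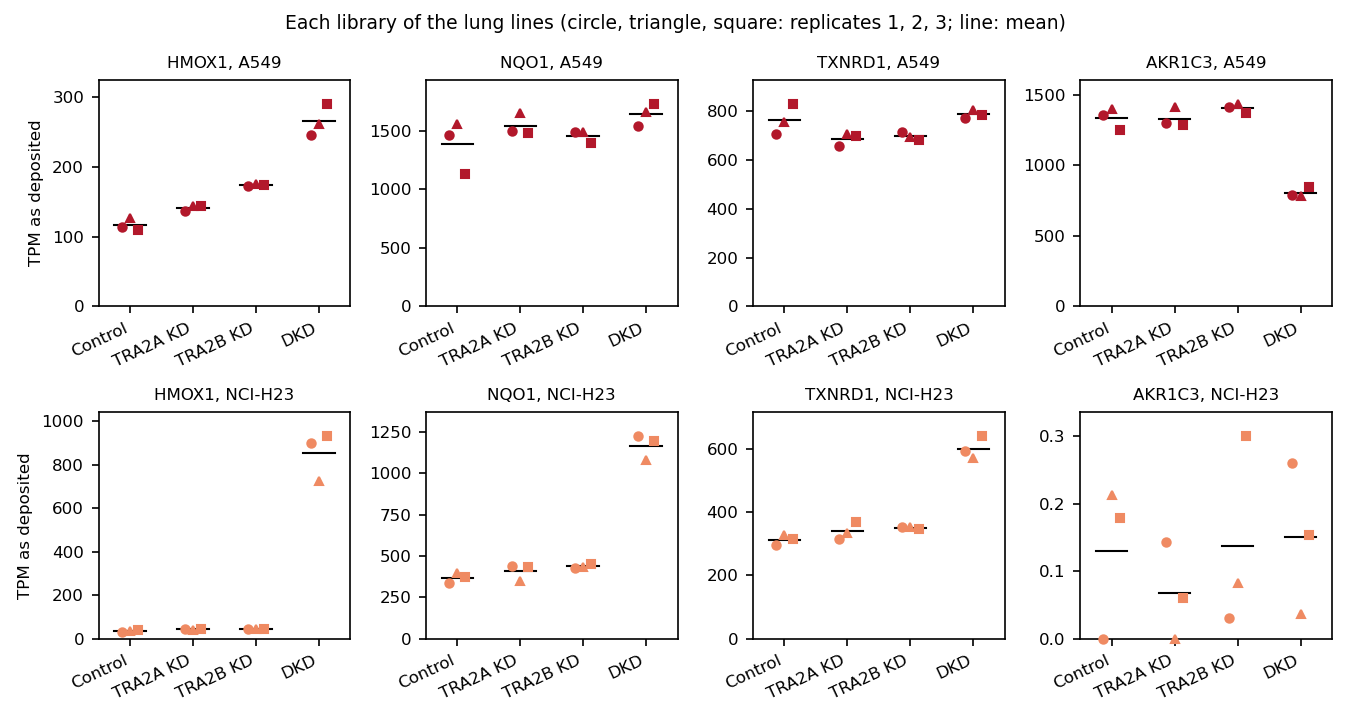
TPM as deposited of *HMOX1*, *NQO1*, *TXNRD1* and *AKR1C3* in each library of A549 and NCI-H23 by knockdown condition, on linear axes from 0 that differ between panels, with a mark for each of 3 libraries per condition and a line at their mean. *HMOX1* stands at 727 to 930 TPM in the NCI-H23 double knockdown against 30.8 to 38.2 TPM in its controls, and *AKR1C3* in A549 is lower in the double knockdown than in the other 3 conditions.

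Whether the double knockdown exceeded the sum of both single knockdowns was tested as a difference of differences. In NCI-H23, 4 of 6 members rose beyond the sum, where 21% of all genes tested departed from it: *HMOX1* by 3.87 ± 0.12 on the log2 scale (SE, limma adjusted p = 6.65e-08), *NQO1* by 1.21 ± 0.11 (adjusted p = 4.53e-05), *SRXN1* by 0.68 ± 0.08 (adjusted p = 0.000184) and *TXNRD1* by 0.60 ± 0.08 (adjusted p = 0.000474). In A549, 4 of 10 members fell below the sum, with 14.7% of genes called, and all 4 were aldo-keto reductases. *AKR1C2* departed by -1.26 ± 0.25 (adjusted p = 0.00734), *AKR1C3* by -1.11 ± 0.17 (adjusted p = 0.00173), *AKR1B10* by -0.55 ± 0.14 (adjusted p = 0.0224) and *AKR1C1* by -0.50 ± 0.13 (adjusted p = 0.0318). For *AKR1C1* and *AKR1C2* the TRA2B KD values lay above the control values (*AKR1C2* 2442, 2571 and 2383 TPM in TRA2B KD) and the double knockdown values did not stay there. *HMOX1* in A549 did not depart from the sum, at 0.01 (adjusted p = 0.98). The calls of *AKR1C1* and *AKR1B10* were lost when any 1 of 7 libraries was left out (replicate 1 or 3 of TRA2A KD, replicate 2 or 3 of TRA2B KD, or any TRA2A/B DKD library), which leaves a count of 2, and those of *AKR1C2* and *AKR1C3* were lost under no alternative.

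**Figure D3:**
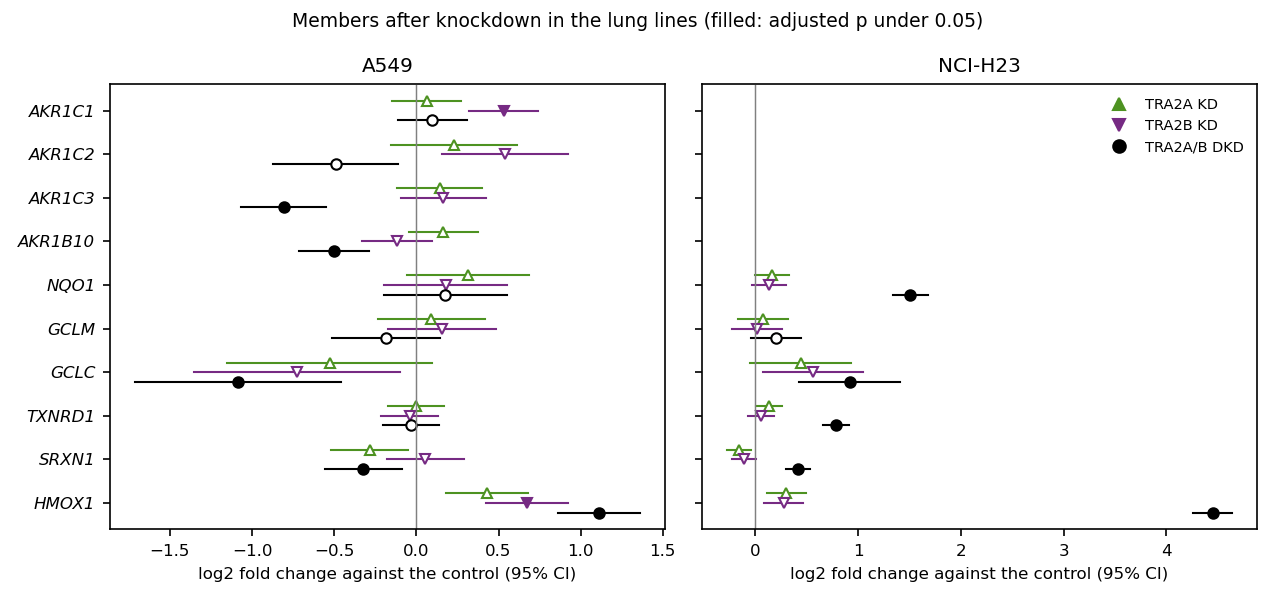
Log2 fold change of each member against Control KD in A549 and NCI-H23, with bars for the 95% confidence interval, axes that differ between the panels, and filled points for members called at an adjusted p under 0.05. *HMOX1* reaches 4.45 in the NCI-H23 double knockdown and 1.11 in that of A549, *AKR1C3* reaches -0.81 in A549, and the 4 aldo-keto reductases have no value in NCI-H23, where they missed the filter.

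The regulators of the pathway were called in the double knockdowns, where the background was 30.6% in A549 and 43.2% in NCI-H23. In the single knockdowns limma called 0 of 9 in either line, where only 0.196% to 0.976% of all genes were called. By the difference of differences, 4 of 9 rose beyond the sum of the single knockdowns in A549 and 1 fell below it. There 14.7% of all genes departed from the sum, and without Control KD replicate 3 the regulator counts were 7 and 1. In NCI-H23, 3 of 9 rose beyond the sum and 1 fell below it, with 21% of all genes called. Without Control KD replicate 3, *SQSTM1* was called lower in A549 TRA2A KD (log2 fold change -0.32, limma adjusted p = 0.0450). In A549 TRA2A/B DKD, 8 of 9 rose and 1 fell, with or without that library. *MAFF*, a small MAF partner, went from 3.22 to 39.3 TPM (log2 fold change 3.52, limma adjusted p = 2.63e-06), *NFE2L2* from 43.5 to 86.5 TPM (0.91, adjusted p = 0.000158), *BACH1* from 8.05 to 16.2 TPM (0.97, adjusted p = 0.00256) and *SQSTM1* from 678 to 1251 TPM (0.81, adjusted p = 0.00147). *CUL3*, the ligase scaffold, fell from 53.2 to 17.8 TPM (-1.63, adjusted p = 6.01e-06), while *KEAP1* was at 47.6 and 59.1 TPM (0.23, adjusted p = 0.0465). In NCI-H23 TRA2A/B DKD, 4 of 9 rose and 2 fell: *SQSTM1* went from 162 to 508 TPM (1.5, adjusted p = 6.47e-08), *MAFG* from 17.4 to 32.5 TPM (0.75, adjusted p = 6.50e-05) and *CUL3* from 59.5 to 28.4 TPM (-1.22, adjusted p = 9.74e-06). *NFE2L2* was at 80.8 and 86.5 TPM there and was not called (adjusted p = 0.53), nor was *KEAP1* (adjusted p = 0.46). These are mRNA levels, so the amount and activity of NRF2 protein were not measured.

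Other genes known as NRF2 targets did not follow the members as a block. Of 6 NADPH-producing enzymes, 4 fell and none rose in the A549 TRA2A/B DKD, led by *PGD* (780 to 345 TPM, log2 fold change -1.24, limma adjusted p = 8.90e-06) and *TKT* (1136 to 547 TPM, -1.13, adjusted p = 2.20e-05), both of the pentose phosphate pathway. In NCI-H23, where *HMOX1* and *NQO1* rose, 4 of the 6 also fell, *PGD* from 40.1 to 18.9 TPM (-1.25, adjusted p = 8.31e-06), and 1 rose, the cytosolic isocitrate dehydrogenase *IDH1*, from 19.3 to 82.8 TPM (1.94, adjusted p = 3.03e-06). Of the iron and heme genes, 4 of 6 rose and none fell in NCI-H23. The ferritin heavy chain *FTH1* went from 1288 to 4170 TPM (1.54, adjusted p = 1.56e-08) and the light chain *FTL* from 484 to 1324 TPM (1.29, adjusted p = 1.77e-06). In A549, 2 of 6 rose, led by *BLVRB*, a biliverdin reductase, from 200.2 to 324 TPM (0.61, adjusted p = 0.00666).

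Among detoxification and export genes, 2 of 8 rose and 3 fell in the NCI-H23 double knockdown, with the stress gene *OSGIN1* going from 5.77 to 31.6 TPM (log2 fold change 2.31, limma adjusted p = 1.83e-06), and 1 of 11 rose and 5 fell in A549, where *PIR* went from 48.3 to 22.9 TPM (-1.15, adjusted p = 0.000174). In mean TPM, *OSGIN1* was also higher in the A549 double knockdown (47.1 to 88.2 TPM) and *PIR* also lower in that of NCI-H23 (17.6 to 11.4 TPM). Among other glutathione and thioredoxin genes, 1 of 8 rose and 3 fell in NCI-H23. The riser was the cystine transporter *SLC7A11*, from 5.51 to 17.1 TPM (1.46, adjusted p = 4.80e-06). In A549, 3 of 9 fell and none rose, led by the glutathione peroxidase *GPX2* (138 to 76.8 TPM, -0.92, adjusted p = 0.00183). These counts stand beside the 30.6% (A549) and 43.2% (NCI-H23) of all genes called in these comparisons. Without Control KD replicate 3 the A549 counts were 4 lower and 1 higher of 9 glutathione and thioredoxin genes, with *PRDX1* (-0.65) lower and *SLC7A11* (0.63) higher. They were then 6 lower and 1 higher of 11 detoxification and export genes, 1 lower and 2 higher of 6 iron and heme genes, and still 4 lower of 6 NADPH enzymes, where 37.8% of all genes were called.

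In LN319, *NQO1*, *TXNRD1*, *SRXN1* and *GCLM* were called higher with TRA2A knockout and lower with TRA2B knockout. In Luc TRA2A KO, 5 of 9 members rose and none fell, with 14.3% of all genes called, and the median log2 fold change was 0.67 over the members and 0.01 over all genes tested. In Luc TRA2B KO, 5 of 9 fell and none rose, a share near the 42.6% of all genes called, and the medians were -0.55 and 0.02. Both comparisons share the Luc Control KO libraries, so their values are given side by side and the opposition was not tested by itself.

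*HMOX1* was at 29.7, 28.8 and 27.0 TPM in LN319 Luc Control KO, at 55.7, 55.1 and 52.9 TPM in Luc TRA2A KO and at 27.0, 28.3 and 28.8 TPM in Luc TRA2B KO. It rose in the former (log2 fold change 0.98 ± 0.08, SE, limma adjusted p = 2.38e-05). In the latter, where the libraries overlapped the controls in TPM as deposited, before scaling, it was not called (adjusted p = 0.20). *NQO1* was at 13.9, 13.1 and 15.8 TPM in controls, 24.5, 21.2 and 33.0 TPM in Luc TRA2A KO (0.89 ± 0.15, adjusted p = 0.00237) and 10.3, 9.76 and 11.2 TPM in Luc TRA2B KO (-0.55 ± 0.15, adjusted p = 0.0109). The 3 conditions do not overlap.

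*TXNRD1*, *SRXN1* and *GCLM* were called in both knockouts, and *GCLC* in neither. *TXNRD1* was at 152, 171 and 175 TPM in LN319 controls, 234, 227 and 254 TPM in Luc TRA2A KO (log2 fold change 0.56 ± 0.09, SE, limma adjusted p = 0.00168) and 117, 122 and 117 TPM in Luc TRA2B KO (-0.59 ± 0.09, adjusted p = 0.000318). *SRXN1* was at 16.6, 16.9 and 17.3 TPM, 20.8, 20.1 and 21.8 TPM (0.34 ± 0.07, adjusted p = 0.00985) and 11.6 TPM in all 3 Luc TRA2B KO libraries (-0.65 ± 0.07, adjusted p = 5.94e-05). *GCLM* was at 26.1, 31 and 28.1 TPM, 42.3, 38.9 and 40.8 TPM (0.56 ± 0.09, adjusted p = 0.00124) and 22.2, 25.5 and 21.2 TPM (-0.41 ± 0.09, adjusted p = 0.00198). *GCLC* was at 5.89, 6.35 and 6.40 TPM in controls and 11, 9.78 and 8.37 TPM in Luc TRA2A KO, without overlap, but was not called (0.67 ± 0.22, adjusted p = 0.057). In Luc TRA2B KO *GCLC* was at 7.79, 7.48 and 9.39 TPM, also above every control and not called (0.29 ± 0.22, adjusted p = 0.31).

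Of the reductases in LN319, *AKR1C1* fell in Luc TRA2B KO, from 1.38, 1.41 and 1.26 TPM to 0.311, 0.484 and 0.763 TPM (log2 fold change -1.39 ± 0.29, SE, limma adjusted p = 0.00226), and the sum of the 3 AKR1C genes fell with it (-0.70 ± 0.23, adjusted p = 0.0265). In Luc TRA2A KO, *AKR1C1* was at 1.76, 1.90 and 3.09 TPM and was not called (0.69, adjusted p = 0.14). No alternative removed any of the 10 member calls of the LN319 luciferase cells. The share of TPM from mitochondrial genes moved with the Luc TRA2B KO, at 18.3% to 20.6% against 12.1% to 12.8% in Luc Control KO. It was also above the controls in Luc TRA2A KO, at 13.2% to 15.0%, and its part in the values of either knockout was not tested.

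The regulators and other targets in LN319 are given by counts, beside the shares of all genes called. Those were 14.3% in Luc TRA2A KO and 42.6% in Luc TRA2B KO, the latter 18.6% higher and 24% lower. The 5 of 9 regulators called in Luc TRA2B KO are near that share. In Luc TRA2A KO, 3 of 9 regulators rose, *SQSTM1* (log2 fold change 0.38), *MAFF* (0.32) and *MAFG* (0.26). In Luc TRA2B KO 1 rose, *MAFG* (0.23), and 4 fell, *KEAP1* (-0.45), *NFE2L2* (-0.39), *CUL3* (-0.39) and *NFE2L1* (-0.20). Of the glutathione and thioredoxin genes, 3 of 8 rose in Luc TRA2A KO, led by *SLC7A11* (14.7 to 22.0 TPM, 0.62), and 7 of 8 fell in Luc TRA2B KO, led by the peroxiredoxin *PRDX1* (918 to 521 TPM, -0.92) and thioredoxin itself, *TXN* (641 to 394 TPM, -0.81). Of the iron and heme genes, 3 of 6 rose in the former, led by *FTL* (355 to 509 TPM, 0.55), and 4 of 6 fell in the latter, led by *BLVRA* (44.6 to 28.2 TPM, -0.77). Of the NADPH enzymes 5 of 6 fell in Luc TRA2B KO, led by *IDH1* (-0.66). Of detoxification and export genes 6 of 10 fell in Luc TRA2B KO, led by the carbonyl reductase *CBR1* (-0.66). In Luc TRA2A KO 1 rose (*UGDH*, 0.40) and 1 fell, the aldehyde dehydrogenase *ALDH3A1*, from 182 to 82.0 TPM (-1.11, limma adjusted p = 0.00168).

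**Figure D4:**
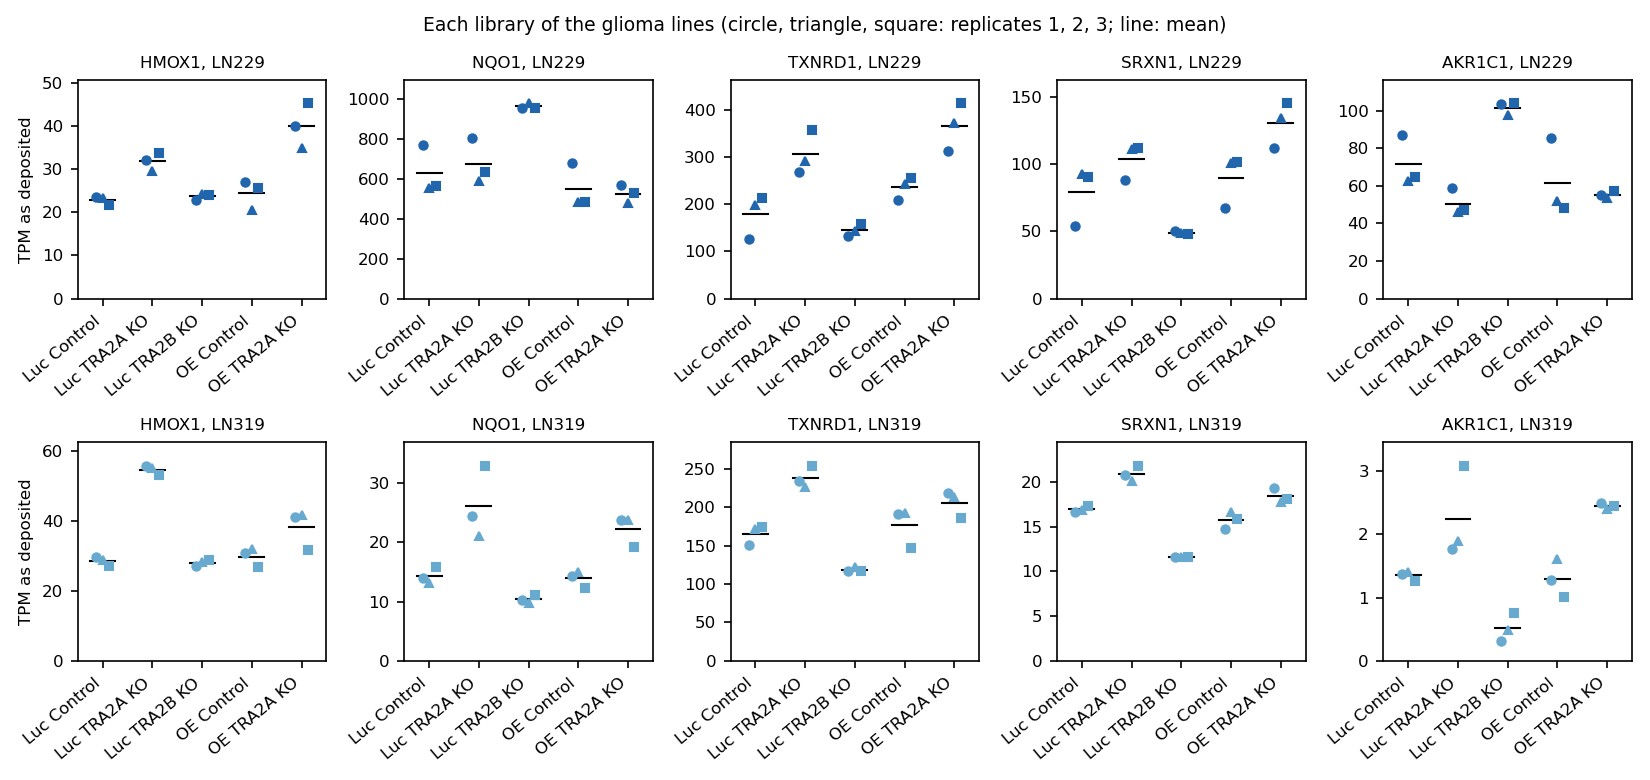
TPM as deposited of *HMOX1*, *NQO1*, *TXNRD1*, *SRXN1* and *AKR1C1* in each library of LN229 and LN319 by knockout condition, on linear axes from 0 that differ between panels, with a mark for each of 3 libraries per condition and a line at their mean. In LN319, *NQO1* and *TXNRD1* are above the luciferase controls in Luc TRA2A KO and below them in Luc TRA2B KO, and in LN229 the replicate 1 luciferase control (circle) lies apart from the other 2 controls for *NQO1*, *TXNRD1*, *SRXN1* and *AKR1C1*.

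In LN229, 3 of 10 members rose in Luc TRA2A KO and none fell, with 3.79% of all genes called. *AKR1B10*, a lowly expressed gene in this line, was at 1.39, 2.88 and 2.79 TPM in Luc Control KO and at 5.24, 4.10 and 4.70 TPM in Luc TRA2A KO (log2 fold change 1.04 ± 0.26, SE, limma adjusted p = 0.0482). *TXNRD1* was at 125, 198 and 214 TPM and then 268, 291 and 357 TPM (0.82 ± 0.19, adjusted p = 0.0355), and *HMOX1* was at 23.5, 23.4 and 21.7 TPM and then 32.2, 29.6 and 33.7 TPM (0.50 ± 0.12, adjusted p = 0.0381). None of the 3 overlapped between conditions. All 3 calls were lost without Luc Control KO replicate 1, when 0 of 10 members and 1.04% of all genes were called and *HMOX1* kept a log2 fold change of 0.51 (adjusted p = 0.0995). Of the further lists, 2 of 9 regulators were called higher with all libraries, *MAFF* (0.49, adjusted p = 0.0360) and *SQSTM1* (0.32, adjusted p = 0.0495), and neither without that control (0.34, adjusted p = 0.0893, and 0.34, adjusted p = 0.0988). The count was also 0 without Luc TRA2A KO replicate 2 or 3, and 1 without replicate 1.

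The same control library decides the Luc TRA2B KO comparison in LN229. With all libraries, limma called 0 of 10 members (7 at an unadjusted p under 0.05), where 0.557% of genes were called. Without Luc Control KO replicate 1, 8 of 10 were called with 21% of all genes, 4 higher and 4 lower. The higher ones were *NQO1* (log2 fold change 0.73, limma adjusted p = 0.00778), *AKR1C1* (0.62, adjusted p = 0.0350), *AKR1C3* (0.59, adjusted p = 0.0452) and *AKR1C2* (0.56, adjusted p = 0.0495). The lower ones were *AKR1B10* (-1.13, adjusted p = 0.00584), *SRXN1* (-0.96, adjusted p = 0.00658), *GCLM* (-0.78, adjusted p = 0.00117) and *TXNRD1* (-0.57, adjusted p = 0.0203). The library values show where that control sits. *NQO1* was at 768, 552 and 563 TPM in Luc Control KO and at 956, 978 and 955 TPM in Luc TRA2B KO, and *SRXN1* was at 54.1, 92.8 and 90.6 TPM in controls and at 50.5, 48.7 and 47.9 TPM in Luc TRA2B KO. Without that control 3 of 9 regulators were called lower in Luc TRA2B KO, as were 4 of 8 glutathione and thioredoxin genes, against 0 of each with all libraries. For *NQO1* and *SRXN1* the first control library lay between the other controls and the knockout libraries. *HMOX1* was at 22.8, 24.1 and 24.1 TPM in Luc TRA2B KO and had a log2 fold change of 0.00 with all libraries.

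Some members lay on opposite sides of their controls in the paired lines, with every perturbed library above all controls in one line and below them in the other. In Luc TRA2A KO this held for 2 of the 9 members tested in both glioma lines (*AKR1C1* and *AKR1C2*) and 2.08% of all genes, and in Luc TRA2B KO for 3 of 9 (*AKR1C1*, *AKR1C3* and *NQO1*) and 3.78%. In TRA2A/B DKD of the lung lines it held for 2 of 6 (*GCLC* and *SRXN1*) and 2.18%. Not all of these values were called. *GCLC* and *SRXN1* were called in both lung lines. In Luc TRA2A KO, *AKR1C1* and *AKR1C2* were called in neither glioma line. In Luc TRA2B KO, *AKR1C1* and *NQO1* were called in LN319, *AKR1C3* was not, and none was called in LN229 with all libraries. The AKR1C genes of LN319 are near the detection filter. No difference between lines was tested.

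Overexpression of *TRA2B* alone called no member in either glioma line. Of 10 members in LN229 TRA2B-OE Control KO, limma called 0 (0 also at an unadjusted p under 0.05), with 1.03% of genes called. Of 9 in LN319, it called 0 (1 at an unadjusted p under 0.05), with 4.31%. *NQO1* was at 682, 484 and 484 TPM in the LN229 TRA2B-OE Control KO libraries, of which the first again stood above the others. In LN229, replicate 1 was the highest library for *NQO1* in 4 of 5 conditions, and the part of the replicate number in these results was not tested beyond the block fit.

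In TRA2B-OE cells, *HMOX1* rose with TRA2A knockout. In LN229 TRA2B-OE TRA2A KO it was at 40.1, 34.8 and 45.2 TPM against 26.9, 20.6 and 25.6 TPM in TRA2B-OE Control KO, without overlap (log2 fold change 0.68 ± 0.12, SE, limma adjusted p = 0.00736). *AKR1B10* was the other of 2 members called of 10, with 6.05% of genes called: it was at 3.42, 3.97 and 2.98 TPM and then 9.36, 6.59 and 5.58 TPM (0.98 ± 0.26, adjusted p = 0.0459). The call of *AKR1B10* was lost when any 1 of the 6 libraries compared was left out. In LN319 TRA2B-OE TRA2A KO, 3 of 9 members rose, with 2.77% of genes called. *NQO1* went from 14.4, 15.0 and 12.3 TPM to 23.7, 23.8 and 19.3 TPM (0.73 ± 0.15, adjusted p = 0.0283) and *GCLM* from 31.7, 36.8 and 29.5 TPM to 42.7, 41.2 and 40.9 TPM (0.41 ± 0.09, adjusted p = 0.0275), both without overlap. *HMOX1* went from 30.7, 31.8 and 26.7 TPM to 41.1, 41.7 and 31.6 TPM (0.41 ± 0.08, adjusted p = 0.0206). There the lowest knockout library overlapped the controls in TPM as deposited, before scaling. None of these 3 was called without TRA2B-OE Control KO replicate 1 or 3 or without TRA2B-OE TRA2A KO replicate 1 or 2.

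The test that asks whether TRA2B overexpression changed the response to TRA2A knockout called no member. In LN229 limma called 0 of 10 members and 0% of 18490 genes, with 1 member and 1068 genes at an unadjusted p under 0.05. In LN319 it called 0 of 9 members (3 at an unadjusted p under 0.05) and 0.0207% of genes. The difference for *HMOX1* in LN319, where the log2 fold change was 0.98 in luciferase cells and 0.41 in TRA2B-OE cells, was -0.57 ± 0.11 (SE, limma adjusted p = 0.22). That no member passed does not show that the responses were equal.

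**Figure D5:**
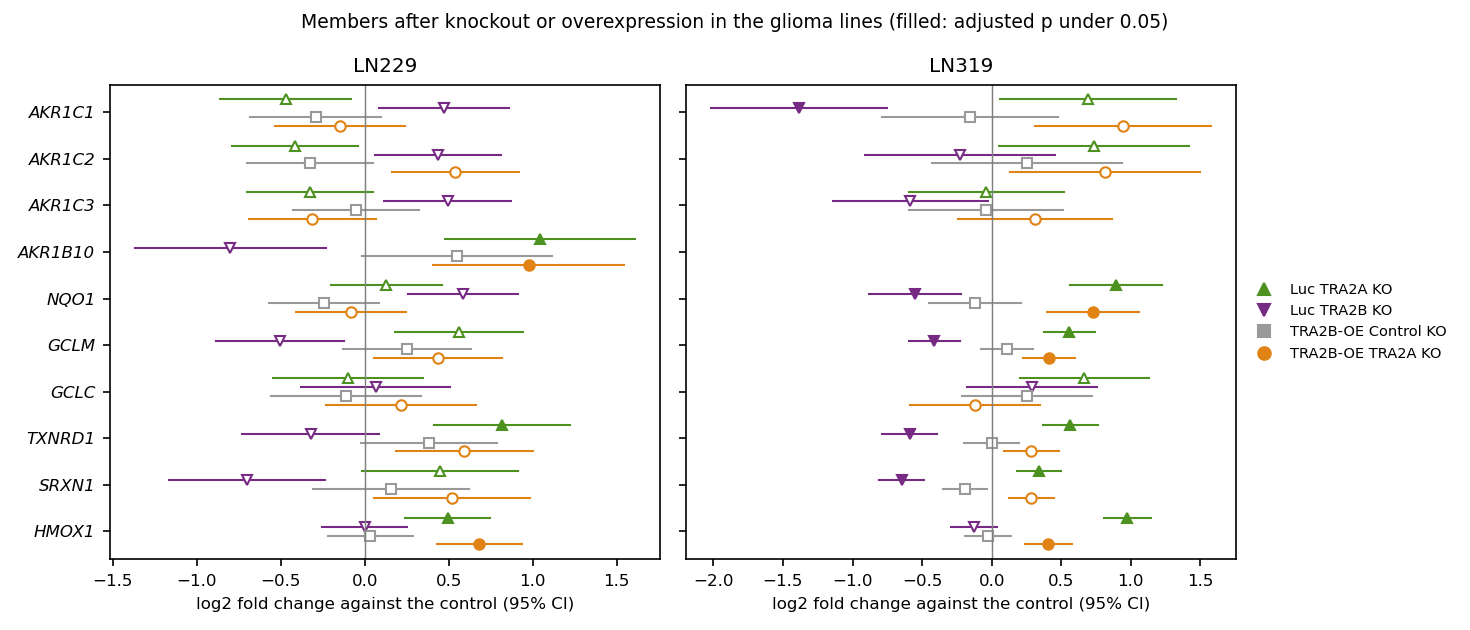
Log2 fold change of each member against its own control in LN229 and LN319, with bars for the 95% confidence interval and filled points for members called at an adjusted p under 0.05. In LN319 the luciferase TRA2A KO values of *HMOX1* (0.98) and *NQO1* (0.89) are called higher and the TRA2B KO values of *SRXN1* (-0.65) and *AKR1C1* (-1.39) are called lower, and *AKR1B10* has no value in LN319, where it missed the filter.

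Close relatives of the members that are not themselves in the group had their own levels. *AKR1B1*, the paralog of *AKR1B10*, was at 1429 TPM in A549 controls, 97.9 TPM in NCI-H23, 237 TPM in LN229 and 61.9 TPM in LN319, and so was expressed in all 4 lines where *AKR1B10* ranged from 0.0545 to 1533 TPM. It rose in both LN229 TRA2A knockouts, by 0.48 on the log2 scale in luciferase cells, a call lost without Luc Control KO replicate 1 (0.41, limma adjusted p = 0.10), and by 0.56 in TRA2B-OE cells, and fell in LN319 Luc TRA2B KO (-0.44). *HMOX2*, the heme oxygenase regarded as constitutive, was called lower in NCI-H23 TRA2A/B DKD (-0.37), where *HMOX1* was called higher, and lower in LN319 Luc TRA2B KO (-0.56).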

How the data were processed

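The authors deposited 1 table of TPM values per cell line, made per the methods with kallisto 0.48.0 against Gencode v34 transcripts (GRCh38) from directional poly(A) libraries; STAR 2.7.3 is also named in the submitters' processing notes. TPM keep no read depth, so the depth behind a value is unknown, and no interval from counts is given. All 54 columns were matched to samples by name. Members and lists were chosen with earlier results of these data known. In each line, genes that reached 1 TPM in 4 or more libraries (16405 in A549, 16293 in NCI-H23, 18490 in LN229, 19303 in LN319) were scaled between libraries with trimmed log ratios, without weights (30% of ratios and 5% of abundances trimmed) and log2(TPM + 0.1) was fitted with limma 3.58.1 (trend) in R 4.3.3, all libraries of the line together. Fold changes are on that scale and understate changes of low genes. Adjusted p-values are Benjamini-Hochberg over all genes. An exact permutation test of 3 against 3 libraries cannot go below p = 0.1 and was not used. All NRF2 regulators could be named. Of each further gene list, at most the 2 called genes of largest change were named. *PRDX1*, *SLC7A11* and *OSGIN1* in A549 and *PIR* in NCI-H23 were named after their values were seen. On simulated data with 200 genes changed 4-fold, the fit recovered 56.5% to 72.5% of them in A549, 68.5% to 83.0% in NCI-H23, 78.0% to 90.5% in LN229 and 78.0% to 88.0% in LN319, over 4 or 5 comparisons per line. Between 2 and 15 unchanged genes were called per comparison. The simulated noise was drawn independently for each library. Changes smaller than 4-fold, as most member changes were, were not simulated, so their recovery is unknown. Alternatives were another pseudocount, other filters, no scaling, quantile normalization, only the groups compared, a replicate block, each library left out and AKR1C genes summed. Coordinates and sequences are from GRCh38 with Gencode release 44, and may differ from the transcripts counted.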

Additional observations from a re-analysis of the deposited data

Results flagged for a closer look

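The response to the double knockdown departed from the sum of the single knockdowns for 8 members by a tested difference of differences. Of all genes tested, 14.7% departed from it in A549 and 21% in NCI-H23. In A549 the departures on the log2 scale were -0.50 for *AKR1C1*, -1.26 for *AKR1C2*, -1.11 for *AKR1C3* and -0.55 for *AKR1B10*, all in the aldo-keto reductases. The *AKR1C1* call was lost in 10 of 20 alternatives, and that of *AKR1B10* was lost in 8 of 19 and reversed in 1. In NCI-H23 they were 1.21 for *NQO1*, 0.60 for *TXNRD1*, 0.68 for *SRXN1* and 3.87 for *HMOX1*.

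In a further set of 7 cases every perturbed library lay above all control libraries in one line and below all of them in the other line. The difference between lines was not tested, since the lines are in separate tables. The shares of all genes that did so were 2.18% in TRA2A/B DKD, 2.08% in Luc TRA2A KO and 3.78% in Luc TRA2B KO. In TRA2A/B DKD, *GCLC* was at -1.09 in A549 and 0.92 in NCI-H23, and *SRXN1* at -0.32 and 0.41. In Luc TRA2A KO, *AKR1C1* was at -0.47 in LN229 and 0.69 in LN319, and *AKR1C2* at -0.41 and 0.73. In Luc TRA2B KO, *AKR1C1* was at 0.47 in LN229 and -1.39 in LN319, *AKR1C3* at 0.49 and -0.58, and *NQO1* at 0.58 and -0.55. Both TRA2A/B DKD genes were called in both lines. In Luc TRA2A KO neither gene was called in either line. In Luc TRA2B KO, *AKR1C1* and *NQO1* were called in LN319, *AKR1C3* was not, and none was called in LN229 with all libraries. The LN229 values depend on Luc Control KO replicate 1, as given with that comparison.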

How the results depend on the processing

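Of the member values called, 443 recomputed values kept their direction and side of the threshold under the alternatives, 103 lost the call and 1 reversed. Of those not called, 1722 kept, 34 passed the threshold and 1 reversed. The reversals were *AKR1B10* beyond the sum in A549, 0.0892 (limma adjusted p = 0.857) after quantile normalization, and *AKR1C1* in A549 TRA2A/B DKD, -0.55 for the sum of the 3 AKR1C genes. Counts of members called moved as follows, the cause not tested. With no filter on low TPM they were 0 in A549 TRA2B KD, 0 in LN229 Luc TRA2A KO, and 1 each in LN229 and LN319 TRA2B-OE TRA2A KO. With TPM as deposited they were 1 in A549 TRA2A KD, 1 in A549 TRA2B KD, 2 beyond the sum in A549 and 1 in LN319 TRA2B-OE TRA2A KO. With quantile normalization the count in A549 TRA2B KD was 1, and with a minimum of 5 TPM that in LN229 TRA2B-OE TRA2A KO was 1. When libraries of other groups were left out of the fit they were 0 in A549 TRA2B KD, 2 in A549 TRA2A/B DKD, and 0 in LN229 Luc TRA2A KO, LN229 TRA2B-OE TRA2A KO and LN319 TRA2B-OE TRA2A KO.

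Leaving out each library gave 0 to 1 members in A549 TRA2A KD, 0 to 2 in TRA2B KD, 3 to 7 in TRA2A/B DKD and 2 to 5 beyond the sum. It gave 0 to 3 in LN229 Luc TRA2A KO, 0 to 8 in Luc TRA2B KO and 1 to 2 in TRA2B-OE TRA2A KO, and 0 to 3 in LN319 TRA2B-OE TRA2A KO. In LN229 TRA2B-OE TRA2A KO the count was 1 without any 1 of the 3 control libraries or without knockout replicate 2 or 3. Counts in NCI-H23 and in the LN319 luciferase knockouts did not move. Same-numbered libraries did not meet the rule for pairs, a correlation of deviations above 0.1 in every pair: it was above 0.1 in 3 of 18 pairs in A549, 1 of 18 in NCI-H23, 3 of 30 in LN229 and 0 of 30 in LN319. The 3 pairs in LN229 (0.136 to 0.212) were all of replicate 1. With the replicate block the count was 0 in A549 TRA2B KD and 4 in LN229 Luc TRA2B KO, 2 higher and 2 lower, where all genes called went from 103 to 509 higher and 812 lower, and other counts stayed within 1.5 times. TPM as deposited shifted the median log2 change of all genes by over 0.1 in A549 TRA2A KD (-0.12) and TRA2A/B DKD (0.11), NCI-H23 TRA2B KD (0.12) and TRA2A/B DKD (0.17) and LN319 Luc TRA2B KO (0.12). That scaling also moved the split of all genes called: from 2343 higher and 2680 lower to 2714 and 2049 in A549 TRA2A/B DKD, from 3252 and 3783 to 4372 and 2569 in NCI-H23 TRA2A/B DKD, from 1316 and 1436 to 956 and 1861 in LN319 Luc TRA2A KO, and from 3598 and 4633 to 4639 and 3581 in LN319 Luc TRA2B KO.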

Other observations

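Calls in the further NRF2 target lists also include those below. Of all genes tested, 0.207% were called in A549 TRA2A KD, 0.976% in NCI-H23 TRA2A KD and 3.79% in LN229 Luc TRA2A KO. In LN319 the shares were 14.3% in Luc TRA2A KO, 2.77% in TRA2B-OE TRA2A KO and 4.31% in TRA2B-OE Control KO. In A549 TRA2A KD, the microsomal glutathione transferase *MGST1* (log2 fold change -1.08) was the 1 gene called of 9 glutathione and thioredoxin genes, and *ALDH3A1* (-0.93) the 1 called of 11 detoxification and export genes. In NCI-H23 TRA2A KD, *FTL* (-0.60) was called lower, and *ABCC3*, an export pump, was called lower as well (-0.44). In LN229 Luc TRA2A KO, *ABCC3* (57.6 to 98.1 TPM, 0.83) and *FTH1* (3337 to 4613 TPM, 0.49) were called higher. Neither was called without Luc Control KO replicate 1 (0.57, limma adjusted p = 0.0627, and 0.57, adjusted p = 0.0580), nor were the other 2 genes called in these lists, *EPHX1* (0.32 with all libraries) and *SLC48A1* (0.31). In both LN319 TRA2A knockouts *ALDH3A1* was called lower, by -1.11 in luciferase cells and -1.04 in TRA2B-OE cells, while *HMOX1* and *NQO1* were called higher. In LN319 TRA2B-OE Control KO, *ABCC3* was called higher (0.59), with no member called.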
